A study of Mus musculus with 12 samples.

Results

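The unfolded protein response genes described here are 10 genes chosen by name: Xbp1, Atf4, Ddit3 and Atf6, which encode transcription factors of the response; Hspa5, Dnajb9 and Pdia4, which encode folding factors of the endoplasmic reticulum (ER); and Herpud1, Sel1l and Edem1, which encode parts of its degradation pathway. All 10 were among the 21490 gene symbols measured, and all 10 were among the 6284 whose signal reached more than 6 reads per base pair (rpbp) in 1 library or more, the set to which the tests were applied. Nascent RNA, the RNA still bound to chromatin while it is being made, was sequenced from liver nuclei of wild-type C57BL/6 mice of 3 to 6 months. The mice were kept under 12 hr of light and 12 hr of darkness, and every group was untreated. Livers were taken at 6 times, zeitgeber time (ZT) 0, 4, 8, 12, 16 and 20, counted in hours from lights on, with 2 replicates a time and 12 libraries in all. The labels number the replicates and do not say how many animals a library holds, so a p-value measures the spread between these libraries. The signal of a gene is the coverage of its exons divided by their length, with all libraries brought to 1 common total of uniquely mapped reads, so levels can be set side by side between genes. The ZT8 and ZT20 libraries were run in 2 lanes and the other 8 in 1 lane, and for a difference of ZT8 and ZT20 from the other times, time and lane number cannot be told apart.

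Secreted and membrane proteins fold in the ER, and a liver cell makes large amounts of them. When unfolded proteins build up there, the sensors IRE1, PERK and ATF6 start the unfolded protein response: IRE1 splices the Xbp1 mRNA so that it encodes an active factor, PERK slows translation and favours that of ATF4, and ATF6 is cut in the Golgi to free a transcription factor. These factors turn on genes for chaperones, disulfide-forming enzymes and ER-associated degradation, which carries misfolded proteins out of the ER to the proteasome. Chaperone genes are known for the ER stress response element (ERSE) in their promoters, which ATF6 and XBP1 bind with the factor NF-Y. In the liver the response has been studied in relation to feeding and the daily cycle. The splicing of Xbp1, the translation of Atf4 and the cutting of ATF6 protein are not measured by nascent RNA.

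The promoters of 4 members are printed to show where these letters stand, since Pdia4 and Sel1l were the members whose course was most like that of Hspa5 over the 12 libraries and Herpud1 had its highest mean at another time than any other degradation or folding gene of the 10. RefSeq (GRCm38.p6) gave 250 bases before and 50 after the start for 9 members, each found at 1 place in mm9, whose coordinates are given. The ERSE was searched as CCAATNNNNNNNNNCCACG and the ERSE-II as ATTGG and CCACG parted by 1 base, on both strands. The ERSE was also searched as CCAATNNNNNNNNNCCA, a looser form that was chosen after the sequences had been seen and that includes every ERSE. The 4 printed promoters are also the only ones of the 9 in which any of these forms was found. Whether the matches go with the course over the day was not tested. Capitals mark the fixed letters of each match, read on either strand.
Hspa5 (chr2:34627360-34627659, plus strand): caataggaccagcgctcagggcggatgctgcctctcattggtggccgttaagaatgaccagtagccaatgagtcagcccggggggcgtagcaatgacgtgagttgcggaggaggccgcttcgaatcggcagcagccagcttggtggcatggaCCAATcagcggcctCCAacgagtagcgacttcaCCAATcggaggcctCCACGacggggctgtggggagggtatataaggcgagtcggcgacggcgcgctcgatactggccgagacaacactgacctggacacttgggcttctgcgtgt
Pdia4 (chr6:47763462-47763761, minus strand): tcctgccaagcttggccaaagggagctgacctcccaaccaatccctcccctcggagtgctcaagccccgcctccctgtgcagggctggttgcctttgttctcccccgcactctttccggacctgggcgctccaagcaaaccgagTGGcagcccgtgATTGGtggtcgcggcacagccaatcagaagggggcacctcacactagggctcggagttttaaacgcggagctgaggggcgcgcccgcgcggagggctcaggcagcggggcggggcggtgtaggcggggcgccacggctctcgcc
Sel1l (chr12:93087548-93087847, minus strand): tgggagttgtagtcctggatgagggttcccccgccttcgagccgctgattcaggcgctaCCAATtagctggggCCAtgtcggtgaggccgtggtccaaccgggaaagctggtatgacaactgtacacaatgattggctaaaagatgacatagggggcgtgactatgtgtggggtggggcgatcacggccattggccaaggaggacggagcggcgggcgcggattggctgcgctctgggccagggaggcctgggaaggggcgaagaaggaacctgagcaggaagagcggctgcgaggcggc
Herpud1 (chr8:96910079-96910378, plus strand): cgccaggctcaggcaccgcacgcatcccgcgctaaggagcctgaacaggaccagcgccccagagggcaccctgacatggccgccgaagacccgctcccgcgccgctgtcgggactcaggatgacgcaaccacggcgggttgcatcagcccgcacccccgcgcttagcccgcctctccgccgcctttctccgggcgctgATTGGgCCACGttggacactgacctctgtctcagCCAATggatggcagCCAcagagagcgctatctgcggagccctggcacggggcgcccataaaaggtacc

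Of the 9 members with a promoter, Hspa5 held the ERSE, from 65 to 47 bases before the start, and Herpud1 held the ERSE-II, from 52 to 42 bases before it. The ERSE was found in 0.119% of the 32851 RefSeq promoters and the ERSE-II in 0.0365%. The looser form was in 1.09% of all promoters and in 4 of the 9 members, at 2 places in Hspa5 and at 1 each in Pdia4, Herpud1 and Sel1l. Because this form was chosen after the sequences had been seen, its count in the members is a description and no support for an enrichment. TGACGTGG, a form of the core of the element that XBP1 binds alone, was in 0 of the 9 and in 0.676% of all promoters. Only this spelling was searched. The printed promoter of Hspa5 holds TGACGTGA, which differs in the last base and was not counted. TGATGNAA, the element read by ATF4 and CHOP, was found in Herpud1 (3.97% of all promoters), and CACGTG, the E-box bound by the clock factors CLOCK and BMAL1, in Dnajb9 (7.15%). Among 31 other tested genes of the pathway with an entry, 8 held the ERSE: Hsp90b1, Calr, Canx, Pdia6, Dnajc3, Creld2, Syvn1 and Derl3. The start used here is that of RefSeq, and it can differ from that of the measured interval. The window of Xbp1 ends at 5420693, before its measured interval begins at 5420970. For Herpud1 these places are 96910378 and 96910400. The bases just before the measured interval of Xbp1 were thus not searched. These matches are letters in a window and not measured binding.

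Most members stood well above the middle of the tested genes. Herpud1 had the highest mean level, 60.4 rpbp ± 30.7 (SD over 12 libraries), above 97.5% of tested symbols. Xbp1 (29.2 ± 7.99) and Hspa5 (29.1 ± 19.9) came next and could not be put in order, Xbp1 being higher in 7 of 12 libraries. Atf4 (21.2 ± 4.97) and Edem1 (20.9 ± 7.97) were likewise within their spread, with Atf4 higher in 8 of 12, as were Pdia4 (15.6 ± 10.3) and Sel1l (15.1 ± 5.68), with Pdia4 higher in 4 of 12. Ddit3 read 12.4 rpbp ± 3.90, Atf6 7.36 ± 1.31 and Dnajb9 3.54 ± 1.65. Sel1l was above Ddit3 in 10 of 12 libraries, Ddit3 above Atf6 in 11 and Atf6 above Dnajb9 in 10, while Herpud1 was above Xbp1 in 11. Relative to its mean, Hspa5 varied most: its coefficient of variation was 0.683, larger than in 94.8% of tested symbols, against 0.179 for Atf6.

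Hspa5 (chr2:34627612-34631977, plus strand) encodes BiP, the main HSP70 chaperone of the ER and the protein that holds the sensors inactive. Coordinates here and below are those of the table, on mm9, and all 10 genes are protein-coding. In replicate 1, Hspa5 read 46.2 rpbp at ZT0, 14.4 at ZT4, 15.3 at ZT8, 15.5 at ZT12, 76.1 at ZT16 and 31.6 at ZT20. Replicate 2 gave 52.1, 9.9, 30.3, 22.4, 13.0 and 22.4 rpbp at the same times. Hspa5 was thus high at lights on in both replicates (49.1 rpbp ± 4.17, SD, n = 2) and low 4 hr later (12.2 ± 3.18), whereas at ZT16 one library held the highest value of all 12 and the other the second lowest. On the log2(rpbp + 1) scale, ZT4 differed from ZT0 by −1.95 ± 0.63 (SE; 95% interval −3.36 to −0.54), a ratio of 0.259. With limma's moderated test and Benjamini-Hochberg adjustment over the 6284 symbols the adjusted p was 0.555, so this difference did not pass. In a bulk sample, fewer cells of a type and less RNA per cell cannot be told apart.

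Pdia4 (chr6:47746140-47763511, minus strand) encodes a disulfide isomerase that works with BiP. In replicate 1, Pdia4 read 18.9 rpbp at ZT0, 10.9 at ZT4, 10.2 at ZT8, 9.6 at ZT12, 44.9 at ZT16 and 14.1 at ZT20. Replicate 2 gave 23.4, 8.4, 14.2, 13.0, 6.2 and 13.2 rpbp. The course resembled that of Hspa5: both ZT0 libraries lay above every library of ZT4, ZT8, ZT12 and ZT20, and the ZT16 libraries were the highest and the lowest of all. Dnajb9 (chr12:45306884-45311055, minus strand) encodes ERdj4, a J-domain partner of BiP. In replicate 1, Dnajb9 read 5.3 rpbp at ZT0, 2.0 at ZT4, 3.7 at ZT8, 2.2 at ZT12, 4.5 at ZT16 and 2.3 at ZT20. Replicate 2 gave 5.1, 2.5, 6.6, 2.3, 1.4 and 4.6 rpbp. Dnajb9 was tested only because 1 library, ZT8 replicate 2, exceeded 6 rpbp.

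Sel1l (chr12:93044483-93087597, minus strand) encodes the adaptor of the HRD1 ubiquitin ligase of ER-associated degradation. In replicate 1, Sel1l read 17.4 rpbp at ZT0, 11.4 at ZT4, 11.4 at ZT8, 10.9 at ZT12, 29.1 at ZT16 and 15.5 at ZT20. Replicate 2 gave 18.3, 9.7, 19.1, 12.7, 8.4 and 16.7 rpbp. Here too ZT0 stood above ZT4 in both replicates, and ZT16 held the extremes. The table lists a second symbol, Sel1h, over the 5' part of the same gene, with 34.3 and 10.1 rpbp in the ZT16 libraries.

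Herpud1 (chr8:96910400-96919258, plus strand) encodes a membrane protein that takes part in the same degradation complex. In replicate 1, Herpud1 read 39.7 rpbp at ZT0, 29.4 at ZT4, 62.4 at ZT8, 98.7 at ZT12, 84.2 at ZT16 and 57.8 at ZT20. Replicate 2 gave 48.0, 22.0, 72.8, 120.9, 22.6 and 66.6 rpbp. Herpud1 had its highest level at lights off in both replicates (110 rpbp ± 15.7, SD, n = 2) and was low at ZT4 in both, which sets its course apart from that of Hspa5; only at ZT16 did the replicates part. ZT12 differed from ZT0 by 1.30 ± 0.46 (SE; 95% interval 0.28 to 2.33) for Herpud1 and by −1.35 ± 0.63 (−2.76 to 0.06) for Hspa5, with adjusted p = 0.155 and 0.294 (limma), so neither passed over the 12 libraries.

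Edem1 (chr6:108778635-108809350, plus strand) encodes a lectin that draws misfolded glycoproteins into degradation. In replicate 1, Edem1 read 18.3 rpbp at ZT0, 15.1 at ZT4, 10.4 at ZT8, 20.7 at ZT12, 42.4 at ZT16 and 21.9 at ZT20. Replicate 2 gave 23.3, 16.9, 14.6, 25.7, 20.5 and 20.9 rpbp. Edem1 was lowest at ZT8 in both replicates and was above its ZT8 level from ZT12 to ZT0 in both. It was the 1 member called rhythmic at 24 hr.

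Among the transcription factors, Xbp1 (chr11:5420970-5425875, plus strand), whose mRNA gives the factor of the IRE1 branch once spliced, was the one with the higher value in replicate 2 at ZT16. In replicate 1, Xbp1 read 36.8 rpbp at ZT0, 22.3 at ZT4, 22.7 at ZT8, 19.2 at ZT12, 37.8 at ZT16 and 28.5 at ZT20. Replicate 2 gave 31.5, 18.1, 29.0, 33.3, 44.3 and 26.6 rpbp. The level at ZT16 (41.1 rpbp ± 4.60, SD, n = 2) did not overlap that at ZT4 (20.2 ± 2.97), a difference of 0.99 ± 0.26 on the log2 scale (95% interval 0.41 to 1.58) whose adjusted p of 0.0833 (limma) did not pass. Atf4 (chr15:80085614-80087971, plus strand) encodes the factor of the PERK branch. In replicate 1, Atf4 read 20.9 rpbp at ZT0, 16.3 at ZT4, 19.3 at ZT8, 21.8 at ZT12, 31.2 at ZT16 and 27.7 at ZT20. Replicate 2 gave 26.6, 17.4, 20.8, 16.3, 15.5 and 20.1 rpbp. Its highest and its lowest library were again those of ZT16, and its other libraries lay between 16.3 and 27.7 rpbp.

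Ddit3 (chr10:126727866-126733342, plus strand) encodes CHOP, a factor that ATF4 turns on and that is linked to cell death under lasting stress. In replicate 1, Ddit3 read 15.0 rpbp at ZT0, 12.7 at ZT4, 9.2 at ZT8, 9.5 at ZT12, 19.2 at ZT16 and 11.9 at ZT20. Replicate 2 gave 14.8, 8.5, 9.7, 18.9, 7.6 and 11.2 rpbp. Replicate 2 was the higher at ZT12 and replicate 1 at ZT16. The interval of Ddit3 runs into that of Mars, which lies on the other strand and read 10.6 rpbp on average, and without strand the reads of the shared end cannot be told apart. Atf6 (chr1:172634588-172797902, minus strand) encodes the membrane-bound sensor that is cut to a transcription factor. In replicate 1, Atf6 read 5.2 rpbp at ZT0, 6.8 at ZT4, 8.9 at ZT8, 9.7 at ZT12, 7.4 at ZT16 and 7.3 at ZT20. Replicate 2 gave 6.3, 6.9, 6.6, 8.9, 6.2 and 8.1 rpbp. Atf6 was the only member with its lowest mean at ZT0, and both ZT12 libraries lay above both ZT0 libraries.

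**Figure D1:**
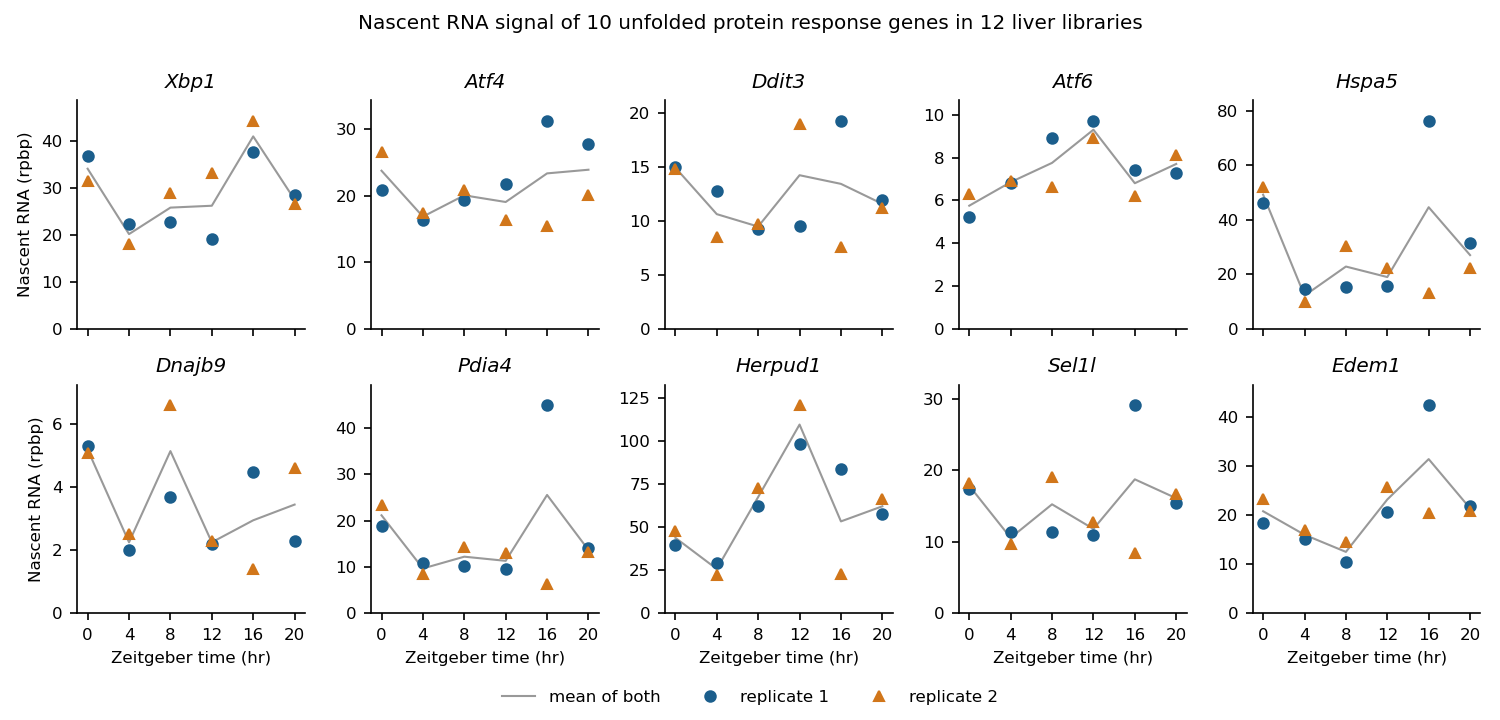
Nascent RNA signal in rpbp (vertical axis, from 0, 1 scale per gene) against zeitgeber time in hours, for the 10 members. Circles are replicate 1, triangles replicate 2 and the line their mean; for Hspa5 the ZT0 points lie at 46.2 and 52.1 rpbp and the ZT16 points at 76.1 and 13.0.

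At lights on most members were higher than 4 hr later. Both ZT0 libraries lay above both ZT4 libraries for 9 of the 10 members, Atf6 being the exception, and this held for 16.9% of all tested symbols. The order was noticed in the values and was counted after they had been seen. The median difference of ZT4 from ZT0 was −0.72 over the members and 0.04 over all tested symbols on the log2(rpbp + 1) scale. It was greatest in size for Hspa5, followed by Pdia4 (−1.06 ± 0.63, SE) and Dnajb9 (−0.94 ± 0.39), and for Xbp1 it was −0.73 ± 0.26. For this 4-hr step limma called 0 members and 0 of all tested symbols after adjustment, and 3 members (Hspa5, Xbp1 and Dnajb9) and 445 tested symbols had an unadjusted p under 0.05. The mean difference kept its direction in all 9 when the libraries were rescaled by the median ratio and when a GC trend was removed.

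At ZT16 the replicates of most members disagreed. On the rpbp + 1 scale, 7 members were more than 2-fold higher in replicate 1 than in replicate 2. This held for 6.22% of all tested symbols. Between the replicates of any other time, 0 members differed by more than 2-fold. Such differences were rare in all tested symbols too. Of these other times they were most frequent at ZT8, at 3.09% with replicate 1 higher and 3.06% with replicate 2 higher. The count of 0 members is thus near this background and does not set the members apart. ZT16 replicate 1 was the highest library of 6 members and ZT16 replicate 2 the lowest of 5. The matching shares over all tested symbols were not counted. The median deviation of all tested symbols from their own means was −0.09 (log2) in ZT16 replicate 1. In ZT16 replicate 2 it was −0.20, the lowest of the 12 libraries. Over the members the median deviations were 0.65 and −0.64. The difference between the replicates on the log2 scale was 2.67 for Pdia4 and 2.46 for Hspa5, which put them 15th and 22nd of the 6284 symbols in this order. It was 1.85 for Herpud1, 1.68 for Sel1l, 1.23 for Ddit3, 1.20 for Dnajb9 and 1.01 for Edem1. The other values were 0.96 for Atf4, 0.22 for Atf6 and −0.22 for Xbp1, while the median over all tested symbols was 0.10. After rescaling, the difference for Edem1 was 0.88, which leaves 6 members above 2-fold.

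With a GC trend removed the ZT16 difference of Hspa5 was 2.45 and that of Pdia4 2.58. Relative to each symbol's mean, symbols of the highest GC content stood above those of the lowest by 0.52 and 0.14 (log2) in ZT16 replicates 1 and 2, and by −1.20 in ZT8 replicate 2. The summed level of 6 hepatocyte markers was 841 rpbp in ZT16 replicate 1 and 734 in replicate 2, within the range of 661 to 1903 over the 12 libraries. Of 22 markers of other liver and blood cells in the table, 7 passed the 6 rpbp threshold, and the highest value of any was 22.7 rpbp, for the Kupffer cell marker Clec4f. In the 2 ZT16 libraries, markers of Kupffer cells and macrophages summed to 35.0 and 29.5 rpbp, those of endothelial cells to 24.7 and 23.1, those of lymphocytes to 4.7 and 3.4, and those of cholangiocytes to 1.6 and 0.8. Stellate cell markers summed to between 6.8 and 10.6 rpbp over the 12 libraries. The erythroid marker Hbb-b1 was at 0 in both, and Krt19, Krt7, Lyve1, Cd79a and Cd3e were at 0 in some library. The part of these differences in the ZT16 values of the members was not tested.

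**Figure D2:**
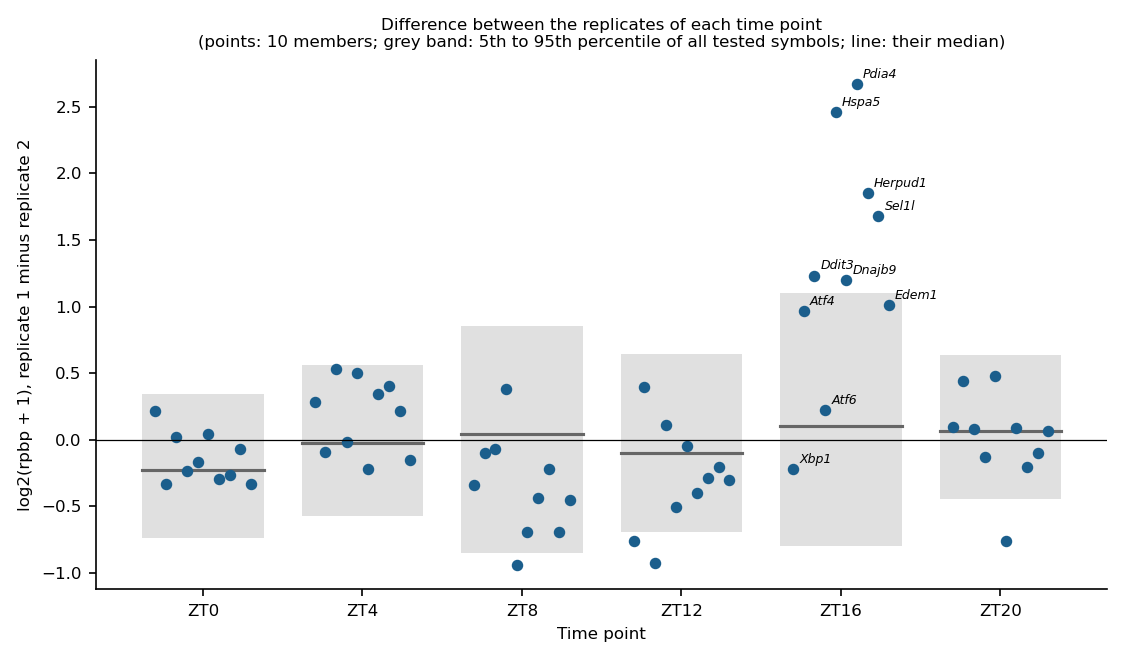
Replicate 1 minus replicate 2 of log2(rpbp + 1) at each time point (vertical axis, log2 units). Points are the 10 members, the grey band runs from the 5th to the 95th percentile of the 6284 tested symbols and the line is their median; at ZT16 Pdia4 (2.67) and Hspa5 (2.46) stand highest and Xbp1 (−0.22) lowest.

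The variance of the members therefore lay partly between 2 libraries. The difference between the ZT16 replicates alone made up 63.8% of the variance of Pdia4 over the 12 libraries, 60.3% for Sel1l, 45.8% for Hspa5 and 45.3% for Atf4, and 3.01% for Xbp1. Its median was 37.3% over the members and 3.04% over all tested symbols. An 8-hr component, which sets ZT0, ZT8 and ZT16 against ZT4, ZT12 and ZT20, held 34.7% of the variance of Xbp1, 31.9% of that of Dnajb9 and 26.2% of that of Hspa5, with a median of 16.8% over the members and 5.33% over all tested symbols. With samples every 4 hr this is the shortest period that can be described, and it was given no test.

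**Figure D3:**
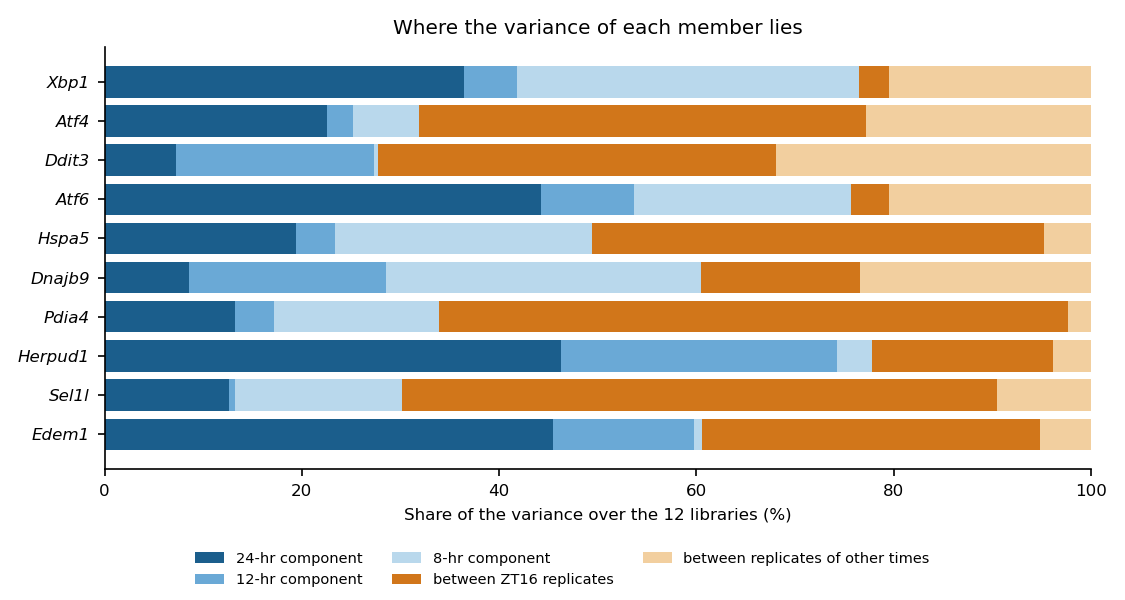
Share of each member's variance over the 12 libraries, in percent (horizontal axis), split into 24-hr, 12-hr and 8-hr components of the time-point means, the difference between the ZT16 replicates and that between the replicates of all other times. The ZT16 replicates hold 63.8% for Pdia4 and 3.01% for Xbp1.

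Whether the members followed the day was read from F24, the share of the variance over the 12 linear values held by a 24-hr cosine. A gene was called at F24 over 0.45, a one-sided permutation p under 0.05 (100000 permutations) and a highest value more than 1.5 times the lowest. Only Edem1 was called of the 10 members, where 15.2% of all tested symbols were. Its F24 was 0.455, just over the threshold, with a phase of 17.0 hr, p = 0.0215 and an adjusted p of 0.215 (permutation test). The call was lost when ZT4 replicate 1, ZT8 replicate 1, ZT8 replicate 2 or ZT16 replicate 1 was left out. Herpud1 had a higher F24 (0.463, phase 12.9 hr) but p = 0.0630, and Atf6 lay just below the threshold (F24 0.442, phase 11.9 hr, p = 0.0777, permutation tests). For the other 7, F24 ran from 0.0724 (Ddit3) to 0.365 (Xbp1), around the median of all tested symbols, 0.222.

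A 12-hr component was called in 0 of the 10 members and in 11.7% of all tested symbols by the same rule, and 0 members had an unadjusted permutation p under 0.05. F12 ran from 0.00677 for Sel1l to 0.280 for Herpud1 (p = 0.225, permutation test), with a median of 0.0734 over the members and 0.220 over all tested symbols. Without the ZT16 libraries F12 was higher in all members but Atf6, as given below. Since a 12-hr pattern with extremes at ZT8 and ZT20 cannot be told apart from lane number, the 4 times run in 1 lane were also compared on their own. Averaged on the log2(rpbp + 1) scale, ZT4 and ZT16 were below ZT0 and ZT12 in all 10 members and in 4285 of the 6284 tested symbols. In rpbp the order was the other way for Xbp1, Pdia4 and Edem1. Xbp1 had means of 20.2 and 41.05 rpbp at ZT4 and ZT16, and 34.15 and 26.25 at ZT0 and ZT12. The median difference on the log2 scale was −0.20 over the members and −0.08 over all tested symbols. By limma 0 members passed after adjustment and 1 (Herpud1, −1.03, adjusted p = 0.928) had an unadjusted p under 0.05, with 0.0159% of all tested symbols called and 308 at an unadjusted p under 0.05. ZT8 and ZT20 together differed from the other times in 0 members (limma), where 5.62% of all tested symbols were called, and 0 members and 1764 tested symbols had an unadjusted p under 0.05.

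The remaining comparisons of time points gave the same count. A limma F-test over the 6 time points called 0 members, and 7.65% of all tested symbols were called. At an unadjusted p under 0.05 there were 3 of the 10 members (Herpud1, Edem1 and Xbp1) and 1737 of the 6284 tested symbols. Times 12 hr apart were compared as ZT12 with ZT0, ZT16 with ZT4 and ZT20 with ZT8: 0 members passed and 7.13% of tested symbols did in at least 1 of the 3. At an unadjusted p under 0.05 there were 3, 2 and 1 of the 10 members and 1156, 1217 and 790 of the 6284 tested symbols. The lowest adjusted p was that of Xbp1 between ZT16 and ZT4, given above. The step from ZT0 to ZT4 in the light differed from that between ZT12 and ZT16 in the dark in 0 members and in 0.605% of tested symbols (limma), with 3 members and 940 tested symbols at an unadjusted p under 0.05. For Xbp1 the difference between these steps was −1.40 (limma, adjusted p = 0.128). Over the 6 consecutive steps 0 members passed (up to 3 in any 1 step at an unadjusted p under 0.05, limma), against 9.82% of tested symbols in at least 1 step. The lowest adjusted p of a member in any step was 0.106, for Edem1 from ZT8 to ZT12.

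The tests of the members turned on the ZT16 libraries, whose replicates enter the error of every comparison. With both left out, a setting chosen after the values had been seen, limma's F-test over the other 5 times called Hspa5 (adjusted p = 0.0416) and Herpud1 (adjusted p = 0.00574), where 7.67% of tested symbols were called. Between ZT0 and ZT12 the same 2 passed limma's test in opposite directions: Hspa5 was lower at ZT12, at 0.392 of its ZT0 level on the rpbp + 1 scale (adjusted p = 0.0452), and Herpud1 was higher, at 2.47 times (adjusted p = 0.00993), with 6.17% of tested symbols called. In limma's tests of consecutive steps Herpud1 passed from ZT4 to ZT8 (2.59 times, adjusted p = 0.0238) and Edem1 from ZT8 to ZT12 (1.80 times, adjusted p = 0.0421), where 12.2% of tested symbols passed some step. F24 then called Atf6 (0.725) and Herpud1 (0.894) and no longer Edem1, with 12.2% of tested symbols called. F12 called 0 members in this setting and ran from 0.0593 for Atf6 to 0.426 for Herpud1 (p = 0.138, permutation test). It was 0.389 for Xbp1, 0.363 for Hspa5 and 0.341 for Sel1l, against 0.0529, 0.0393 and 0.00677 over the 12 libraries. A share over 10 libraries and a share over 12 are not directly comparable. For the step from ZT0 to ZT4 the interval of Hspa5 became −2.70 to −1.20, with adjusted p = 0.0886 (limma).

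**Figure D4:**
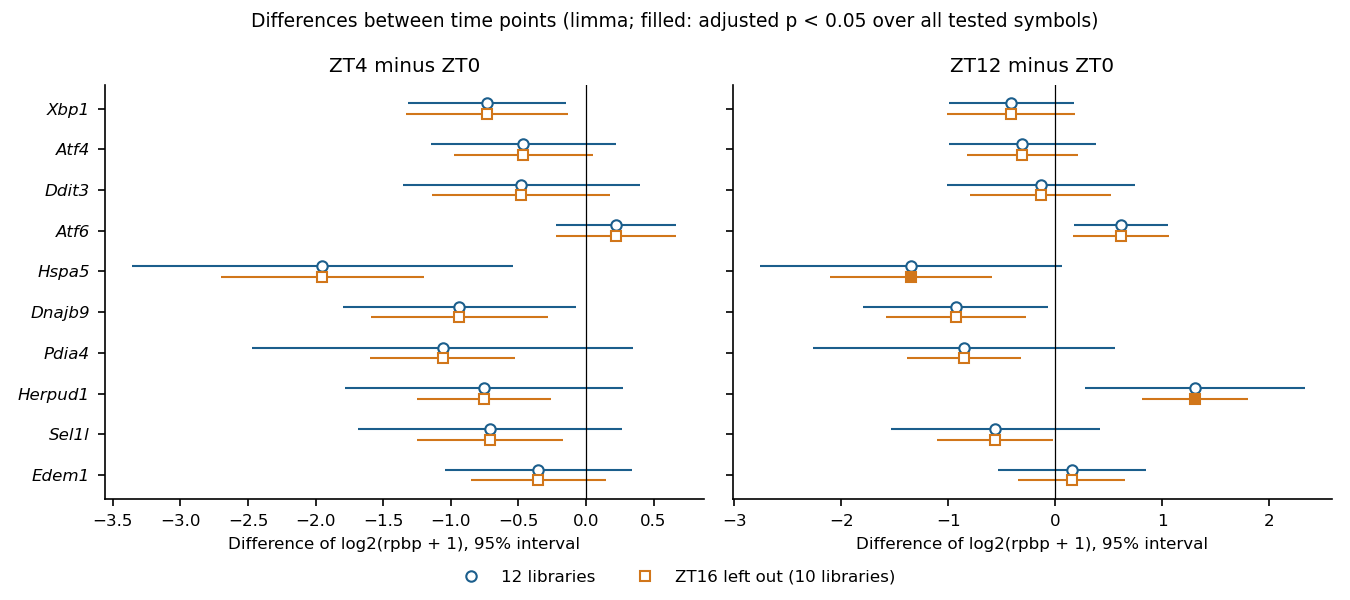
Difference of log2(rpbp + 1) with its 95% interval (limma) for each member, ZT4 minus ZT0 on the left and ZT12 minus ZT0 on the right. Circles use 12 libraries and squares leave out ZT16; filled symbols have an adjusted p under 0.05, which for ZT12 minus ZT0 holds for Hspa5 (−1.35) and Herpud1 (1.30) without ZT16.

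Leaving out only 1 ZT16 library moved the calls further, in a way that depended on which one. Without replicate 1, the F-test called Hspa5, Pdia4 and Herpud1 (10.2% of tested symbols). Herpud1 was then also lower in ZT4 and ZT16 than in ZT0 and ZT12 (0.356 times, limma adjusted p = 0.0264, 0.0318% of tested symbols called) and higher in ZT8 and ZT20 than at the other times (1.57 times, adjusted p = 0.0355, 5.84%). Without replicate 2, it called Hspa5, Pdia4, Herpud1 and Edem1 (8.16%), and these 4 were then called between ZT16 and ZT4, where 1.34% of tested symbols were: Hspa5 at 5.95 times its ZT4 level, Pdia4 at 4.34, Herpud1 at 3.22 and Edem1 at 2.56. The steps in light and dark then differed for Hspa5, Pdia4 and Sel1l, with 1.61% of tested symbols called, and F24 called Atf6, Herpud1 and Edem1, with 13.8%. In each of these fits the lone ZT16 library was assumed to vary like the other times. No value measured here says which of the 2 libraries stands nearer to the level of ZT16.

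Over all 12 libraries Pdia4 and Sel1l were the members whose course was most like that of Hspa5. Pearson's r of log2(rpbp + 1) with Hspa5 was 0.940 for Pdia4 and 0.928 for Sel1l, and 0.972 and 0.900 over the 10 libraries without ZT16. Xbp1 had r = 0.572 with Hspa5 over 12 libraries and 0.877 over the 10 without ZT16, and Herpud1 had 0.396 and 0.191. Atf6 ran the other way (r = −0.32 over 12). Of the 10 symbols most like Hspa5 among all those tested, 7 were genes of the pathway, the member Pdia4 among them. The 10 members and 41 other genes of the pathway were among the 6284 symbols tested. These lists were chosen with earlier results of the data known. The symbol nearest to Hspa5 was Armet, which encodes the secreted protein MANF (r = 0.986). Outside the lists the nearest were AK017634 (0.953), Slc35b1 (0.945), which encodes a member of the nucleotide sugar transporter family, and Alg12 (0.933), a mannosyltransferase of N-glycan synthesis. AK017634 overlaps the chaperone gene Hsp90b1, and Alg12 lies 366 bases from Creld2, and without strand the reads of AK017634 and Hsp90b1 cannot be told apart. The 3 symbols most like Xbp1 were Orm1 (0.872), which encodes a secreted acute phase protein, the short transcript DQ704729 (0.863) and Pik3r1 (0.855), the regulatory subunit of PI3 kinase. Orm1 was high in both ZT16 libraries, at 57.7 and 41.6 rpbp. These values are descriptions of 12 libraries that share their preparation and scaling.

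The other genes of the pathway were taken from a list of 63, all in the table, 9 of them under an older name or synonym, of which 41 were tested. Both ZT0 libraries lay above both ZT4 libraries for 32 of the 41, and 21 were more than 2-fold higher in ZT16 replicate 1 than in replicate 2 (16.9% and 6.22% of all tested symbols). This list, too, was drawn up with earlier results known. Of the 15 folding genes tested, 14 and 13 did so. Of the 41, 4 exceeded 6 rpbp only at ZT16, and 3 of these only in ZT16 replicate 1, so they were tested through that time alone; the 4 are Crebl1, Sdf2l1, Derl3 and Spcs3, and the counts of the 41 include them. Sdf2l1, a cofactor of BiP, read 3.3 and 2.3 rpbp at ZT0, 0.4 and 0.3 at ZT4, and 14.6 and 0.8 at ZT16 in replicates 1 and 2. Creld2, another ER stress-inducible gene, read 14.0 and 9.7 rpbp at ZT0, 2.5 and 1.5 at ZT4, and 41.4 and 3.0 at ZT16. Ero1lb, an oxidase that recharges disulfide isomerases, read 10.7 and 7.1 rpbp at ZT0, 2.6 and 2.3 at ZT4, and 13.9 and 3.5 at ZT16. None of the 15 passed the F-test over the time points (0 at an unadjusted p under 0.05, limma).

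Of the degradation genes, 9 of 15 were tested, and the 2 pathway genes that passed the F-test were both among them. Derl3, a derlin of the channel through which proteins leave the ER, read 16.8 and 10.7 rpbp at ZT16 and between 1.1 and 5.5 in all other libraries (F-test adjusted p = 0.0178, limma). Since Derl3 exceeded 6 rpbp only at ZT16, it was tested only through the time at which it was high, and its calls are no independent support for that time. ZT16 was 4.64 times ZT4 on the rpbp + 1 scale (limma, adjusted p = 0.0260). Syvn1, which encodes the HRD1 ligase itself, read 97.0 and 29.6 rpbp at ZT16, 30.5 and 33.1 at ZT0, and 13.2 and 12.4 at ZT4 (limma, adjusted p = 0.0480), with ZT16 at 3.97 times ZT4 (adjusted p = 0.0393). Os9, a lectin of the same complex, had an adjusted p of 0.162 in limma's F-test and passed in 1 step, from ZT8 to ZT12 (2.23 times, adjusted p = 0.0434). Derl3 was high in both ZT16 libraries and its F-test call was lost without ZT16 replicate 1 (adjusted p = 0.0527, limma). The call of Syvn1 was lost when any 1 of the 10 libraries of other times was left out, and held without either or both of the ZT16 libraries. Without both ZT16 libraries the F-test called 8 of the 41, where 7.67% of tested symbols were called: Syvn1, Atf5 and the folding genes Calr, Pdia6, Sdf2l1, Hyou1, Creld2 and Armet. The tested set was kept from the 12 libraries. Sdf2l1 was in it only through ZT16 and read between 0.1 and 3.3 rpbp at all other times.

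Of the sensors and the proteases and factors of the ATF6 branch, 5 of 7 were tested and 0 passed the F-test. Ern1, which encodes IRE1, read 33.2 and 34.9 rpbp at ZT0 and 16.2 and 18.9 at ZT12, and Creb3l3, a liver factor of the ATF6 family, read 53.0 and 64.9 at ZT12 and 34.9 and 37.1 at ZT0 (limma F-test, adjusted p = 0.212 and 0.217). Creb3l2, of the same family, read 10.5 and 6.9 rpbp at ZT12 and 4.2 and 5.4 at ZT20 (limma, adjusted p = 0.185). The protease gene Mbtps1 was the 1 gene of the 41 called at 24 hr (F24 0.741, phase 5.42 hr, permutation p = 0.00535, adjusted p = 0.132). In the eIF2alpha and ATF4 branch only 3 of 11 were tested and 0 passed: Atf5, a target of ATF4, read 3.4 and 3.3 rpbp at ZT8 and 20.9 and 3.4 at ZT16, Cebpg stayed between 4.6 and 9.3 rpbp, and Ppp1r15b between 11.1 and 17.9. In the translocation and secretory path 9 of 12 were tested, 0 passed, and ZT0 stood above ZT4 for 8. D3Ucla1 (Serp1) read 8.3 and 7.4 rpbp at ZT0 and 3.4 and 3.9 at ZT4, and Ssr3, a subunit of the translocon-associated complex, 11.7 and 11.9 at ZT0 and 5.3 and 4.1 at ZT4. Tloc1, which encodes the translocon subunit SEC62, was the 1 gene of the 41 called at 12 hr (F12 0.470, permutation p = 0.0011, adjusted p = 0.222), and its 4 highest libraries were those of ZT8 and ZT20, run in 2 lanes. Tloc1 exceeded 6 rpbp only in ZT8 replicate 2 (8.8 rpbp), so it was tested only through a time at which its 12-hr pattern was high.

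**Figure D5:**
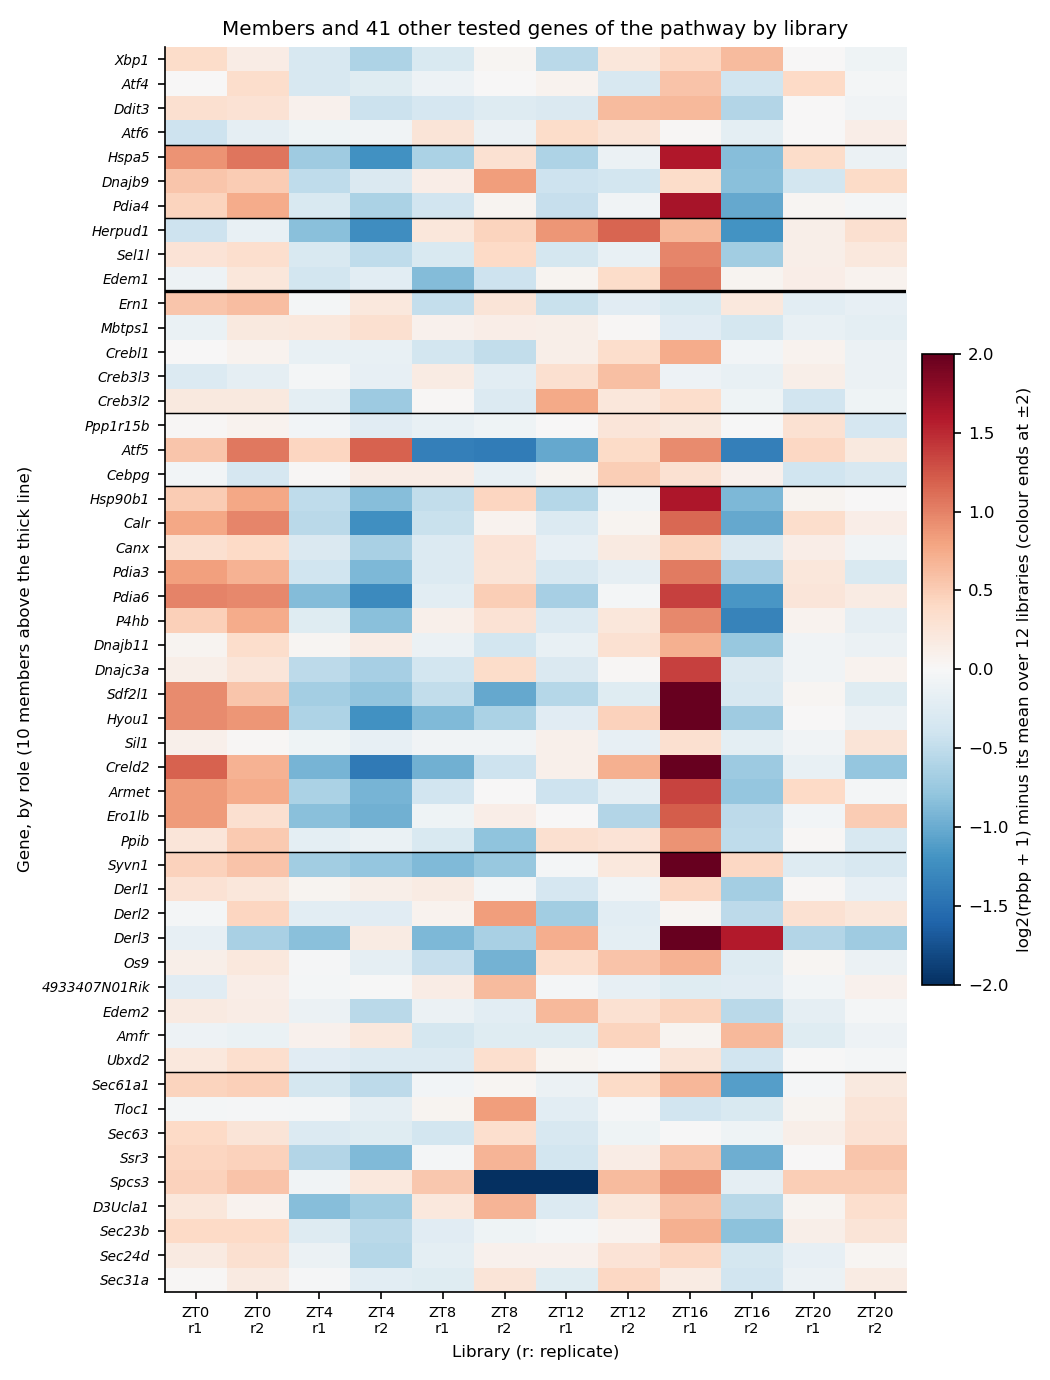
Each gene's log2(rpbp + 1) minus its mean over the 12 libraries, as colour from −2 to 2, with libraries in columns and genes in rows. The 10 members stand above the thick line and the 41 other tested genes of the pathway below it, by role; most folding genes are above their mean in both ZT0 libraries and in ZT16 replicate 1, and below it at ZT4 and in ZT16 replicate 2.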

How the data were processed

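Nascent RNA was sequenced from mouse liver nuclei in 12 libraries, 2 at each of 6 times. The authors mapped reads to mm9 with TopHat after CASAVA 1.7 and deposited, for each gene model, a signal: the exon coverage per base, without strand, scaled to 40000000 uniquely mapped reads and rounded to 1 decimal. The deposited table also holds the authors' own 24-hr scores, phases and p-values, which were not used. It gives no counts. The study states the number of mapped reads of each library, which was not used here to turn the signal back into reads, and no counting interval was computed. Of 49409 lines, 27919 carry no symbol and 21490 do; the 6284 symbols over 6 rpbp in at least 1 library were tested.

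Time points were compared with limma 3.58.1 (R 4.3.3) on log2(rpbp + 1), all 12 libraries sharing 1 estimate of spread, with Benjamini-Hochberg adjusted p under 0.05 as the threshold. F24 and F12, with permutation p from 100000 permutations, were computed in Python 3.11.15 with numpy 2.4.6 and pandas 2.3.3. A fold is on the rpbp + 1 scale and understates the change of low genes. Both procedures were run on simulated data with independent noise, in which the planted step at ZT4 was larger than that of any member. These runs do not show how well the smaller differences of the members would be found. Promoters came from RefSeq. Alternatives were other thresholds, median rescaling, removal of a GC trend (97.9% of tested symbols had a GC value), a replicate block, a pseudocount of 0.1, log2 values and each library left out; leaving out both ZT16 libraries, and the tests of consecutive steps, were added after seeing the data.

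The members and lists were chosen with earlier results of these data known. The genes named are the 10 members, the 3 other pathway genes of each role with the lowest F-test p and, for likeness, the 3 symbols outside the lists nearest to Hspa5 and to Xbp1. Mbtps1, Armet as the nearest to Hspa5, and the pathway genes called without the ZT16 libraries or tested only through them, or holding the ERSE, fall outside this rule and were named after their values were seen.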

Additional observations from a re-analysis of the deposited data

How the results depend on the processing

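For members called at 24 hr the count was 1; it was 3 with the libraries rescaled, 2 with a GC trend removed, 2 with both ZT16 libraries left out and 0 with adjusted p in the call, and 0 to 3 with 1 library left out. The F-test called 0 members, 2 with both ZT16 libraries left out, and 0 to 4 with 1 left out. With 1 library left out the counts of members were 0 to 1 for ZT4 and ZT16 against ZT0 and ZT12, 0 to 1 for ZT8 and ZT20 against the other times, 0 to 4 for times 12 hr apart, 0 to 3 for the steps in light and dark and 0 to 3 for consecutive steps; every count above 0 in these 5 and in the F-test came without a ZT16 library. A 12-hr component was called in 0 members under every alternative.

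Of the 41 other pathway genes the F-test called 2, against 1 at a threshold of 3 rpbp, 0 with no threshold, 1 with a GC trend removed, 1 at a pseudocount of 0.1, 8 without both ZT16 libraries and 1 to 15 with 1 library left out (11 without ZT16 replicate 1 and 15 without replicate 2). The 12-hr count of 1 became 0 at 12 rpbp, 3 with no threshold, 0 rescaled, 0 with a GC trend removed, 2 on log2 values, 10 without both ZT16 libraries, 0 with adjusted p and 0 to 13 with 1 left out. The 24-hr count of 1 became 0 at 12 rpbp, 2 with no threshold, 2 rescaled, 4 with a GC trend removed, 2 without both ZT16 libraries, 0 with adjusted p and 1 to 5 with 1 left out. The cause was not tested.

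The correlation of same-numbered replicates' deviations ran from −0.12 to 0.32 over 15 pairs of times (over 0.1 in 5), so the numbers were not taken to pair the libraries. With the replicate block the F-test called 1 other pathway gene, the 12-hr rule 3 and the 24-hr rule 2, and no count of members moved. Over the values of single members and all alternatives, 614 kept their call and direction, 15 gained a call, 5 lost one (Edem1 at 24 hr) and 0 reversed. With 2 libraries a time, 1 library can decide a comparison, and the counting error of the low genes Dnajb9 and Atf6 was not computed.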
